A study of Mus musculus with 9 samples.

Results

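MicroRNAs of serum small extracellular vesicles were compared between HFD Sirt3 AKI mice and chow WT mice, to see which of them stood away from the level of lean wild-type animals in the knock-in on high fat diet and which did not. The comparison took 6 of the 9 libraries of the study, 3 per group, and all 1169 microRNAs counted, of which 346 had enough counts to be tested. The chow WT mice were wild type and chow-fed. The HFD Sirt3 AKI mice, also called the knock-in below, overexpressed Sirt3, a mitochondrial deacetylase, specifically in adipose tissue and were fed a high fat diet. A further 3 libraries of wild-type mice on the high fat diet (HFD WT) are given beside the comparison. The series title names male mice, while the sources used here give neither ages nor the promoter or Cre driver of the overexpression. Diet and genotype both differ between HFD Sirt3 AKI and chow WT, so their parts in any difference cannot be told apart. Library names carry a wild-type code in chow WT, a SIRT3CKI code in HFD WT and a SIRT3CKIcr code in HFD Sirt3 AKI, so a difference in mouse line cannot be told apart from diet or genotype either. The labels place HFD Sirt3 AKI replicates 2 and 3 in one batch, and replicate 1 with all chow WT and HFD WT libraries in another. Sirt3 mRNA was not measured by this assay. The labels do not state separate animals, so p-values reflect only how these samples spread, which may be technical.

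Small extracellular vesicles are membrane-bound particles that cells release and that carry microRNAs, short RNAs which guide Argonaute proteins to messenger RNAs. A mature microRNA finds its targets mainly through its seed, bases 2 to 8, so microRNAs with the same seed share most predicted targets. Each precursor hairpin can give a 5p and a 3p arm, of which one is usually more abundant. Blood vesicles and the material that precipitates with them come from red cells, platelets, leukocytes, endothelium, liver, adipose tissue and other sources, and few microRNAs belong to 1 cell type. Here the vesicles were precipitated from whole serum with a commercial reagent, so adipocyte vesicles were not separated from the rest. A change in the amount of vesicles from one source and a change in the microRNA loaded per vesicle cannot be told apart.

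The sequences below are the mature microRNAs on which the results turn, as RefSeq gives them for GRCm38.p6, 5′ to 3′, with the seed in capitals. The first pair, the 3p arms of miR-30a and miR-30e, is shown because both fell and share a seed. The arm opposite miR-30a-3p follows, since it had nearly the same mean level in both groups.
miR-30a-3p: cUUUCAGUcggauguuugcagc
miR-30e-3p: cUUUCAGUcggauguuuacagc
miR-30a-5p: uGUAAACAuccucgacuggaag
The next pair shares a seed and rose.
miR-92a-3p: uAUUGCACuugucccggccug
miR-25-3p: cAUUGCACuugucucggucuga
The next 3 share a seed, with large decreases in miR-429-3p and miR-200b-3p and none called in miR-200c-3p.
miR-429-3p: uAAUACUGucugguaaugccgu
miR-200b-3p: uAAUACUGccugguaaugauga
miR-200c-3p: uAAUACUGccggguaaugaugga
The pair miR-215-5p and miR-192-5p shares a seed and moved in opposite directions.
miR-215-5p: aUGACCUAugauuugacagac
miR-192-5p: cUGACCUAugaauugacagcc
The let-7 guide arms share a seed and stood close to chow WT, except that let-7e-5p rose and let-7f-5p fell.
let-7b-5p: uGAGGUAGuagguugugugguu
let-7d-5p: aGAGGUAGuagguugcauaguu
let-7e-5p: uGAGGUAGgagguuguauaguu
let-7f-5p: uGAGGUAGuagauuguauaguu
The last pair shares a seed, and only miR-20a-5p was called.
miR-93-5p: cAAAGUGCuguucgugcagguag
miR-20a-5p: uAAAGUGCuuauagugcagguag
In that build miR-30a-3p lies on the plus strand at chr1:23272315-23272336 and miR-30e-3p on the minus strand at chr4:120772618-120772639. The miR-429-3p sequence lies on the minus strand at chr4:156053916-156053937, and miR-92a-3p is encoded on chromosomes 14 and X. Of the 340 known microRNAs tested, 290 matched this table by name.

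The libraries differed in depth and in spread before any single microRNA was considered. Chow WT libraries held 225002 to 306974 counts and HFD Sirt3 AKI libraries 1729416 to 2973432, a mean ratio of 8.26. Between 481 and 547 microRNAs had at least 1 count in a chow WT library, and between 738 and 772 in an HFD Sirt3 AKI library. At the smallest total, 225002 counts, 481 to 517 would be expected in chow WT and 452 to 513 in HFD Sirt3 AKI, so the greater number detected in HFD Sirt3 AKI was not seen at equal depth. The biological coefficient of variation, edgeR's measure of spread between replicates, was 10.2% in chow WT and 38.6% in the knock-in. Replicate 2 of HFD Sirt3 AKI stood apart in liver, brain and skin microRNAs, described further on. Levels below are counts per 1000000 of the library total after trimmed mean of M values (TMM) scaling, written normalised CPM.

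Many of the tested microRNAs differed between HFD Sirt3 AKI and chow WT. The edgeR quasi-likelihood test called 143 of 346 (41.3%) at a Benjamini-Hochberg adjusted p below 0.05, 67 higher (19.4%) and 76 lower (22%), and 174 had an unadjusted p below 0.05. Of these, 45 rose and 51 fell by more than 2-fold. Over all tested microRNAs the median log2 fold change was 0.039, that of the called increases 1.26 and that of the called decreases -1.40. In 192 of 346 (55.5%) the 3 HFD Sirt3 AKI libraries and the 3 chow WT libraries did not overlap. A total of 85 (24.6%) had a log2 fold change whose whole 95% interval lay between -1 and 1, that is, less than 2-fold away from chow WT in either direction, and 69 of those were not called. The remaining 134 were neither called nor placed that close to chow WT, so their position is not resolved with 3 libraries per group.

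The balance of increases and decreases depended on the scaling and on the filter. With library totals in place of TMM the log2 fold changes moved by a median of -0.39, and 35 increases and 118 decreases were called, so that 22.9% of calls were increases against 46.9% with TMM. All 76 decreases and 35 of the 67 increases were kept under that scaling. It lowers the log2 fold changes by construction, so a called decrease can hardly be lost under it. Without a filter on low counts the split went the other way, with 101 increases and 60 decreases (62.7% increases), and 66 of the 67 increases but 50 of the 76 decreases were kept. Wherever they could be tested, 25 increases and 25 decreases were called in each of the 20 alternatives run. Those named below as kept throughout belong to these 50. The 20 alternatives are not separate checks. Library totals and the 2 limma fits on TPM share 1 scaling, and each kept all 76 decreases but 35 of the 67 increases. TMM factors of the 6 libraries hardly changed the fit and kept all 143 calls. Counts of alternatives kept or lost are therefore not comparable between increases and decreases.

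**Figure D1:**
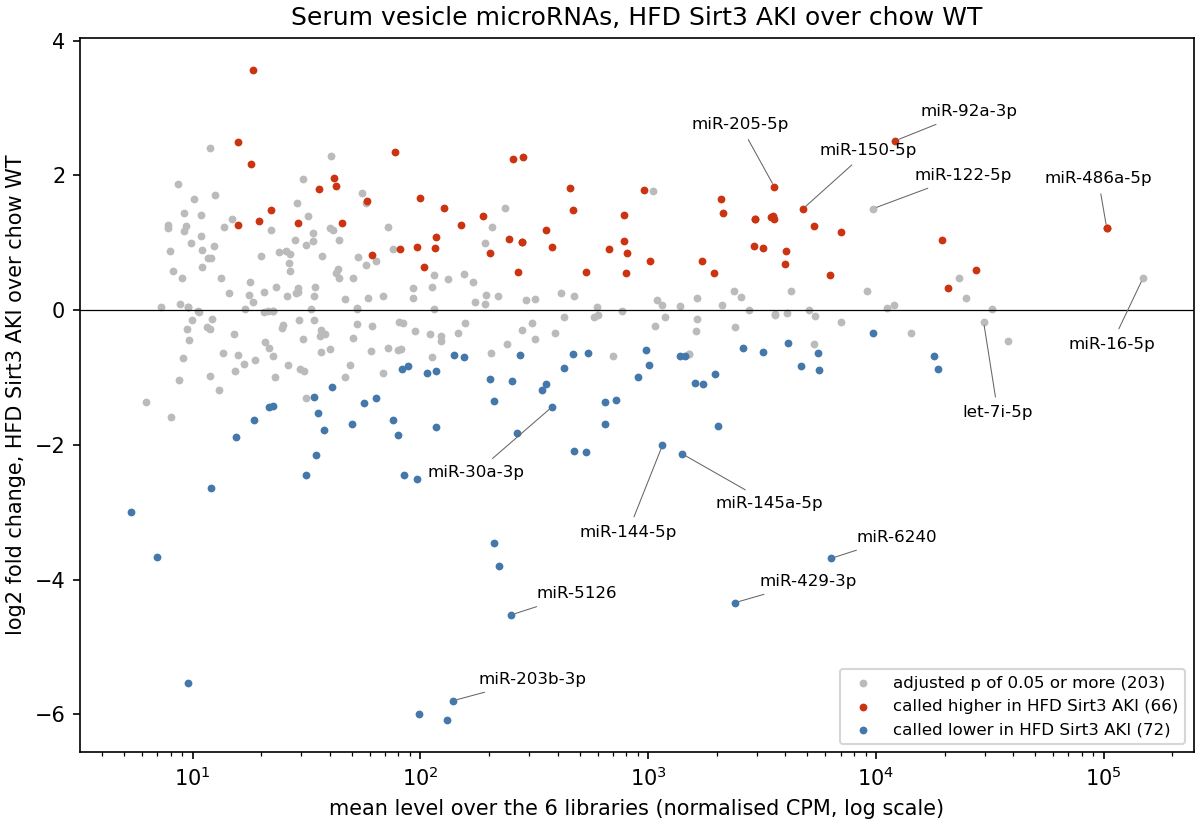
Each point is 1 of 341 tested microRNAs, with its mean normalised CPM over the 6 libraries (log scale) on the x axis and its log2 fold change, HFD Sirt3 AKI over chow WT, on the y axis. A further 5 are not drawn because a group is at 0. The 66 red points were called higher and the 72 blue points lower, and the most extreme fold changes, such as those of miR-429-3p, miR-6240 and miR-203b-3p, are decreases.

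The microRNA named in the series title, miR-30a-3p, was lower in HFD Sirt3 AKI than in chow WT. Its level was 582, 559 and 521 normalised CPM in the chow WT libraries and 204, 205 and 208 in HFD Sirt3 AKI. The groups did not overlap, and the HFD Sirt3 AKI libraries lay closer together than those of any other group. The mean fell 2.69-fold, from 554 ± 30.4 to 206 ± 1.90 normalised CPM (SD, n = 3; log2 fold change -1.43, SE 0.13, edgeR adjusted p = 1.61e-04). HFD WT stood between them at 294, 289 and 331 normalised CPM, with a log2 fold change of -0.86 over chow WT. The decrease in HFD Sirt3 AKI was kept throughout, between -1.82 (library totals) and -1.09 (no filter). It was therefore among the microRNAs that stayed away from chow WT, and it lay further from it than in HFD WT.

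The other arm of the same hairpin did not follow. The level of miR-30a-5p was 4750.2, 5390.3 and 5007 normalised CPM in chow WT, against 4374, 6149 and 4684 in the knock-in. The groups overlapped, and the 95% interval of the log2 fold change ran from -0.35 to 0.37 (estimate 0.01, edgeR adjusted p = 0.984). The log2 ratio of the 3p to the 5p arm, which no scaling changes, had a mean of -3.19 ± 0.136 for chow WT, -4.10 ± 0.0873 for HFD WT and, lowest of all, -4.60 ± 0.262 in HFD Sirt3 AKI (SD, n = 3). Between HFD Sirt3 AKI and chow WT this ratio fell by 1.42 (SE 0.21, limma adjusted p = 0.00418 over 80 hairpins).

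Members of the miR-30 family, known regulators of adipocyte differentiation and of lipid metabolism in liver, went in different directions. Of 9 tested members 4 fell, 1 rose and 4 were not called, with a median log2 fold change of -0.07. Over all tested microRNAs 22% fell, 19.4% rose and 55.5% had groups that did not overlap. Counts of calls and groups without overlap, here and in the lists below, are to be read against these shares. No list was compared with them by a test. Next to miR-30a-3p, the guide arm miR-30b-5p fell from 494, 421 and 535 to 225, 282 and 174 normalised CPM (log2 fold change -1.09, SE 0.21, edgeR adjusted p = 0.00498). The guide arm miR-30c-5p fell from 3371, 2336 and 2086 to 1400.0, 1292 and 1343 normalised CPM (-0.95, SE 0.19, adjusted p = 0.00598). Neither pair of groups overlapped, although chow WT replicate 1 stood high for miR-30c-5p.

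The seed partner of miR-30a-3p fell by less. The level of miR-30e-3p was 226, 186 and 162 normalised CPM in chow WT, against 103, 121 and 132 in the knock-in (-0.69, SE 0.20, edgeR adjusted p = 0.0262). The call was lost without any single chow WT library, without HFD Sirt3 AKI replicate 1, without a filter and at equal depth, with log2 fold changes from -0.43 to -0.79 in those settings. By contrast miR-30d-5p, the most abundant member, rose from 4140.4, 4648 and 4292 to 10035, 8776 and 10444 normalised CPM (1.16, SE 0.12, adjusted p = 2.57e-04) and was kept throughout. The guide arm miR-30e-5p stood at 3671 ± 250.3 and 3501 ± 214 normalised CPM (SD, n = 3; -0.07, adjusted p = 0.668), a value called lower with library totals (-0.46). The scarce arms miR-30c-2-3p and miR-30b-3p, with means under 30 normalised CPM in each group, had log2 fold changes of 0.21 and 0.10 and were not called.

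**Figure D2:**
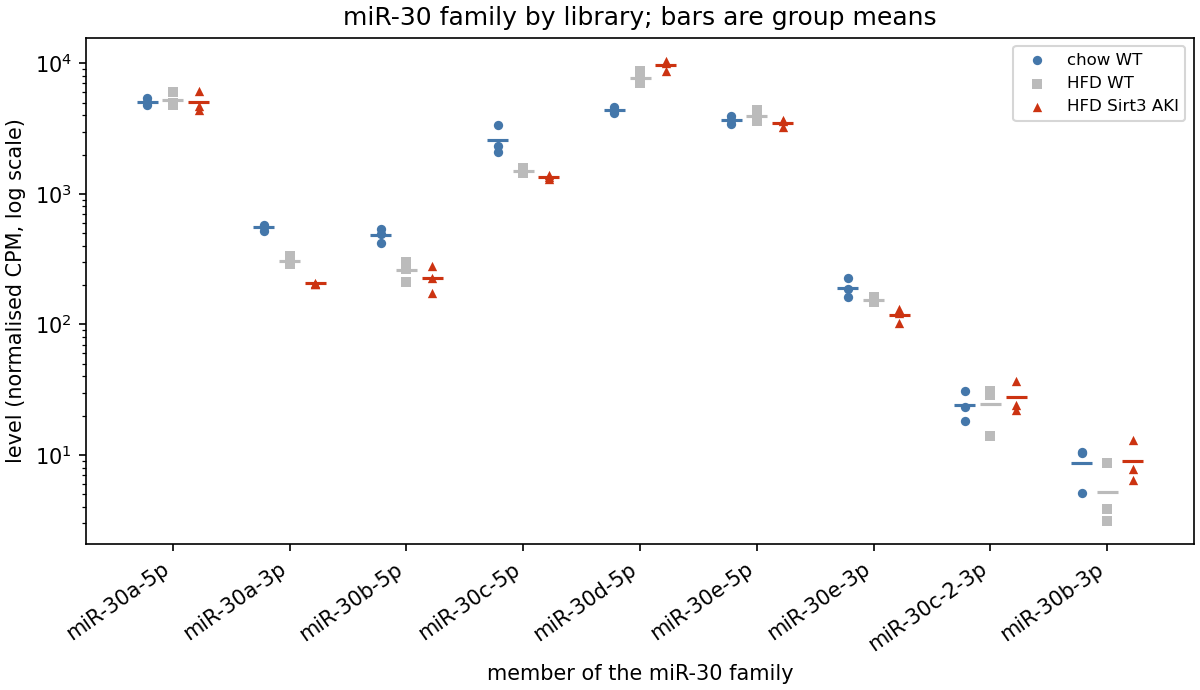
Level in normalised CPM (log scale) of the 9 tested miR-30 family members in each of the 9 libraries, by group, with bars at the group means. For miR-30a-3p the 3 HFD Sirt3 AKI libraries sit at 204 to 208, below HFD WT (289 to 331) and chow WT (521 to 582), while miR-30d-5p is highest in HFD Sirt3 AKI.

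Red cell microRNAs made up the largest share of all counts of the 16 lists and did not move together. They took 41.6%, 39.2% and 40.9% of counts in chow WT and 55.5%, 46.9% and 55.7% in the knock-in, without overlap. The list of 15 had 6 increases, 3 decreases and 6 members not called, with a median of 0.87, beside 19.4% higher and 22% lower over all tested. Both arms of miR-486a and miR-486b are counted identically, so that these are 4 distinct increases among 13 distinct members. With library totals the 15 had 6 increases and 5 decreases with a median of 0.45. The abundant miR-486a-5p, counted identically with miR-486b-5p so that their reads cannot be assigned to one locus, rose from 67180.3, 59377 and 59878 to 142880.0, 122866 and 166688 normalised CPM (2.32-fold; log2 fold change 1.21, SE 0.14, edgeR adjusted p = 3.66e-04). The call with the smallest adjusted p among all increases was miR-92a-3p, which the miR-17 to miR-92 clusters encode and red cells hold in plenty. It rose from 3281, 3632 and 3954 to 21658, 16917 and 23625 normalised CPM (5.72-fold; 2.52, SE 0.15, adjusted p = 4.55e-05). Its seed partner miR-25-3p rose from 14902, 11841 and 11438 to 28328, 20421 and 29537 (1.04, SE 0.18, adjusted p = 0.00318). In all of these the groups did not overlap, HFD Sirt3 AKI replicate 2 was the lowest of its group, and the calls were kept throughout.

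The erythroid miR-144 and miR-451a, which are transcribed together and induced by GATA1, did not rise. The level of miR-144-5p fell from 1935, 1607 and 2006 to 581, 387 and 413 normalised CPM (4.02-fold; -2.01, SE 0.19, edgeR adjusted p = 2.10e-04). In HFD WT it was 1039, 1114 and 996, between the other groups and without overlap. The 3p arm miR-144-3p fell from 304, 233 and 276 to 143, 140.4 and 115 (-1.03, SE 0.18, adjusted p = 0.00321), while HFD WT stood at 315, 332 and 247. For miR-451a the levels were 51048, 39023 and 41485 in chow WT and 39442, 22579 and 33748 in HFD Sirt3 AKI. These groups overlapped and the change was not called with TMM (-0.46, adjusted p = 0.12), but with library totals it was called lower (-0.87). A log2 ratio of miR-451a to miR-23a-3p, used in the field to judge red cell lysis, was 3.16, 2.79 and 2.96 in chow WT and 2.82, 2.17 and 2.69 in HFD Sirt3 AKI, whereas miR-486a-5p and miR-486b-5p together took 15.4% to 17.0% of counts in chow WT and 26.6% to 30.6% in HFD Sirt3 AKI. The part of lysis in these changes was not tested. The red cell members miR-16-5p, the most abundant microRNA of all (0.48, adjusted p = 0.0815), and miR-15b-5p and miR-15a-5p (-0.23 and -0.10) were not called, and miR-185-5p fell by 1.07.

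Of 12 tested leukocyte and platelet microRNAs 6 rose and 2 fell, with a median of 0.70, against 4 increases and 5 decreases with library totals. Over all 346 tested, 67 rose and 76 fell, against 35 and 118 with library totals. The lymphocyte microRNA miR-150-5p rose from 2383, 2548 and 2531 to 7125, 6166 and 7820.5 normalised CPM (1.5, SE 0.13, edgeR adjusted p = 1.27e-04). The leukocyte microRNA miR-342-3p rose from 1997, 1936 and 1889 to 4943, 4660.4 and 5675 (1.39, SE 0.12, adjusted p = 1.44e-04). The myeloid and platelet microRNA miR-223-3p rose from 1801, 2022 and 1934 to 5480.2, 4256 and 5222 (1.38, SE 0.14, adjusted p = 2.24e-04). All 3 had groups that did not overlap and were kept throughout. HFD WT means were 5885, 4428 and 5639 normalised CPM in the same order, so neither high fat diet group was near chow WT.

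The inflammation-linked members split. The NF-kB target miR-146a-5p, which damps Toll-like receptor signalling, rose from 2192, 1905 and 1948 to 5795, 4341 and 5260.3 normalised CPM (1.35, SE 0.14, edgeR adjusted p = 3.09e-04). The level of miR-155-5p, a microRNA of activated macrophages and lymphocytes, fell from 867, 687 and 753 to 179, 186 and 176 (4.27-fold; -2.09, SE 0.14, adjusted p = 6.10e-05). Both were kept throughout and neither pair of groups overlapped. Over the whole inflammation and fibrosis list 8 of 15 tested members rose and 2 fell (median 1.09), where miR-199a-3p and miR-199b-3p hold identical counts and make 7 distinct increases among 14. With library totals 2 rose and 2 fell (median 0.69). Over all tested microRNAs 19.4% rose and 22% fell. Among its abundant members miR-21a-5p, a growth and fibrosis-linked microRNA, rose by 0.60 (adjusted p = 0.00667) and miR-125b-5p by 1.25 (adjusted p = 0.00712). Neither was called with library totals (0.21 and 0.89), and miR-29c-3p, which represses collagen genes, fell by 0.57 (adjusted p = 0.00817).

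Epithelial microRNAs held the steepest decrease of an abundant microRNA and also one of the firmest increases. The level of miR-429-3p, a member of the miR-200 family that restrains ZEB1 and ZEB2, was 4408, 4792 and 4538 normalised CPM in chow WT, against 176, 315 and 187 in the knock-in. The groups were 20.3-fold apart (-4.34, SE 0.23, edgeR adjusted p = 3.52e-05), and HFD WT stood at 151, 159.6 and 146. Its neighbours in the same cluster fell too, miR-200b-3p from 989 ± 113 to 306 ± 73.9 (SD, n = 3; -1.69, SE 0.20, adjusted p = 4.71e-04) and miR-200a-3p from 3093 ± 103 to 943 ± 705 (-1.72, SE 0.45, adjusted p = 0.0205). The last group mean covers 461, 1752 and 615 normalised CPM, with replicate 2 high. The call of miR-200a-3p was lost when chow WT replicate 1 (-1.67) or 2 (-1.71) or HFD Sirt3 AKI replicate 3 (-1.44) was left out and at equal depth (-1.84). From the other miR-200 cluster, miR-200c-3p was 296, 300.5 and 332 in chow WT and 233, 271 and 251 in HFD Sirt3 AKI, which did not overlap but were not called (-0.30, adjusted p = 0.135).

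The squamous epithelial microRNA miR-205-5p rose. It went from 1575, 1719 and 1429.7 to 4735, 6718 and 5329 normalised CPM (3.55-fold; 1.83, SE 0.16, edgeR adjusted p = 1.44e-04), with groups that did not overlap, and was kept throughout. HFD WT, at 3633, 2139 and 1929, lay between, and its replicate 1 stood above the other 2. Skin-enriched miR-203-3p was called higher (1.66, SE 0.54, adjusted p = 0.0440), but its libraries overlapped, at 926, 1283 and 794 against 1256, 6139.6 and 2098. That call was lost in 10 of 20 alternatives, among them the batch term (0.32) and the larger batch alone (0.48). The microRNA annotated on the opposite strand of the same locus, miR-203b-3p, fell from 324, 303 and 193 to 3.23, 7.47 and 4.13 (55.3-fold; -5.80, SE 0.36, adjusted p = 5.31e-05). At these knock-in levels miR-203b-3p passed the filter only through chow WT, where it was high. Its direction was thus largely fixed by the filter. Over the epithelial list 4 of 14 rose and 3 fell (median 0.47), with 2 and 4 under library totals, beside 41.3% of all tested microRNAs called.

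Hepatocyte microRNAs included a pair with the same seed that parted. The level of miR-215-5p rose from 82.3, 112 and 69.1 to 496, 325 and 441 normalised CPM (4.78-fold; 2.25, SE 0.24, edgeR adjusted p = 3.58e-04). The far more abundant miR-192-5p, from a related precursor and also expressed in intestine and kidney, fell from 7563, 6819.6 and 7532 to 3125, 5152 and 3617 (1.84-fold; -0.88, SE 0.19, adjusted p = 0.00821). Both were kept throughout and in neither did the groups overlap. The main hepatocyte microRNA miR-122-5p was 5108, 6519 and 3484 in chow WT and 5663, 26196 and 11075 in HFD Sirt3 AKI. These overlapped, the change was not called (1.51, 95% interval 0.32 to 2.69, adjusted p = 0.0515), and the high value came from replicate 2. Of the 7 tested members of the list 2 rose and 1 fell (median 1.24), a called share near the 41.3% of all tested microRNAs.

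Adipose microRNAs, taken from a list of fat-enriched or adipogenic microRNAs most of which are also expressed elsewhere, had 9 decreases, 4 increases and 12 members not called among 25 tested, with a median of -0.19. Over all tested microRNAs 22% were called lower and 19.4% higher (median 0.039), and the difference between the list and the rest was not tested. With library totals the list had 12 decreases and 1 increase (median -0.52), beside 118 decreases and 35 increases among all 346. The list took 6.10% to 6.31% of counts in chow WT and 3.85% to 5.12% in the knock-in. The stromal and smooth muscle microRNA miR-145a-5p fell from 2308, 1962 and 2621 to 466, 567 and 537 normalised CPM (4.39-fold; -2.13, SE 0.15, edgeR adjusted p = 7.00e-05). From the hairpin in the Ppargc1b gene, miR-378a-5p fell from 437, 457 and 345 to 103, 110.0 and 139 (-1.82, SE 0.19, adjusted p = 2.88e-04). Its abundant arm miR-378a-3p, a regulator of mitochondrial metabolism, fell from 6737 ± 414 to 4352 ± 303 (SD, n = 3; -0.63, SE 0.11, adjusted p = 0.00372). Another member, miR-221-3p, fell by 0.83 (adjusted p = 0.00215).

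The Hox cluster microRNA miR-196a-5p, linked to brown adipogenesis, was nearly uniform in chow WT at 417, 405 and 421 normalised CPM and spread over 4.67, 64.1 and 22.2 in HFD Sirt3 AKI (13.7-fold; -3.79, SE 0.70, edgeR adjusted p = 0.00602). Despite that spread all 3 libraries were far below chow WT. The increases were miR-99b-5p, from 389, 473 and 435 to 1253, 1603 and 1609.8 (1.78, SE 0.16, adjusted p = 1.44e-04), and miR-99a-5p, miR-148a-3p and miR-143-3p (0.73, 1.03 and 0.88). Only the first of these 4 was called with library totals. The partner of miR-145a-5p on the same primary transcript is miR-143-3p, which went from 2887, 3360.1 and 2227 to 3679, 7697 and 4268 (adjusted p = 0.0446). Its call was lost in 9 of 20 alternatives, among them the batch term, equal depth and leaving out any chow WT library or HFD Sirt3 AKI replicate 3. Regulators of lipid metabolism and insulin action had 4 increases and 4 decreases among 19 (median 0.28, and -0.12 with library totals), with miR-103-3p and miR-107-3p, which lower insulin sensitivity, not called (0.28 and -0.01). Their called share was near the 41.3% of all tested microRNAs.

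**Figure D3:**
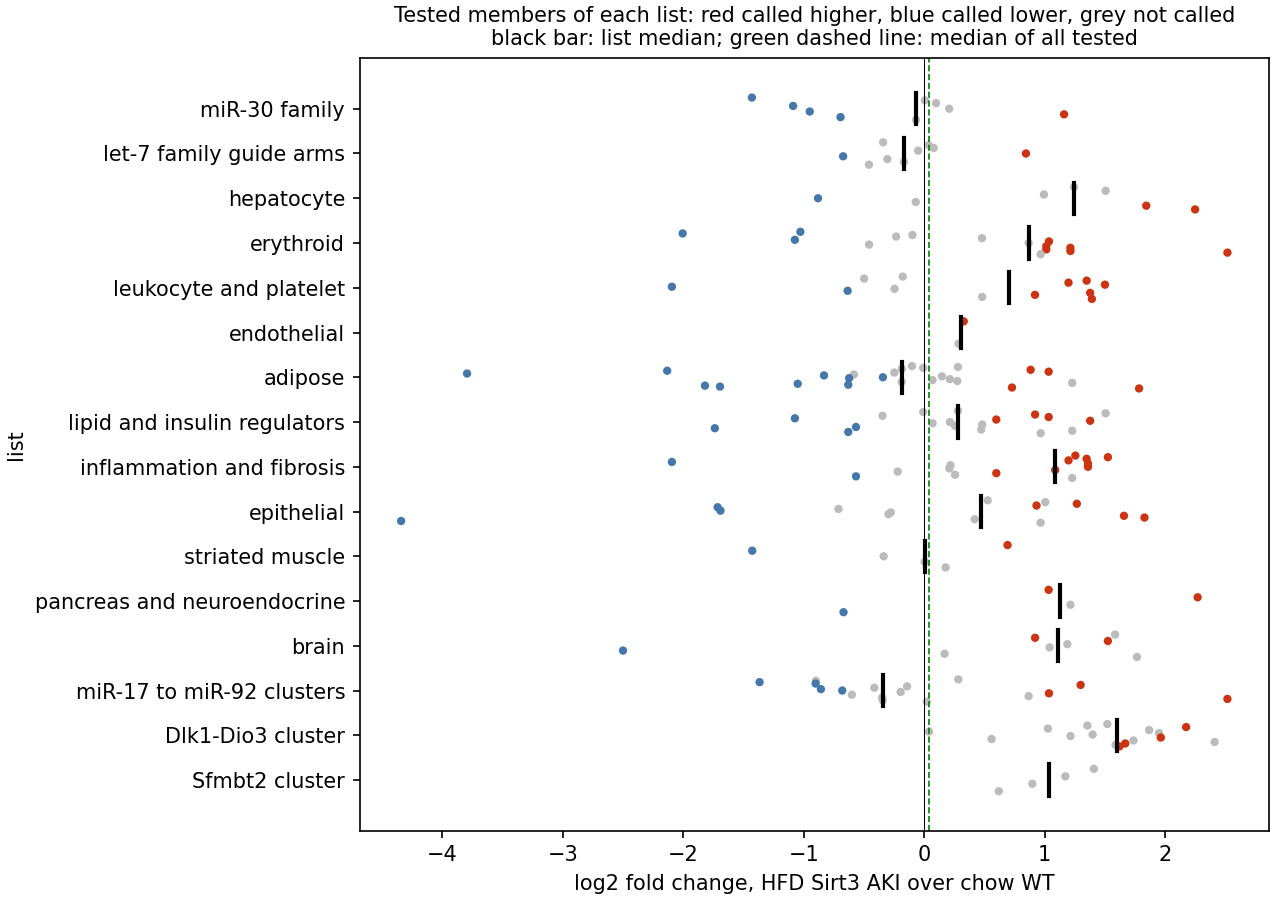
Each row is a list and each point a tested member, placed by its log2 fold change, HFD Sirt3 AKI over chow WT, with red for called higher, blue for called lower and grey for not called. Black bars mark list medians and the green dashed line the median of all tested microRNAs (0.039), and most lists hold members on both sides of 0.

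Guide arms of the let-7 family, known to restrain growth and insulin signalling, stood close to chow WT in the knock-in. Of 9 tested guide arms with the seed GAGGUAG, 8 had a 95% interval within 2-fold of chow WT, against 24.6% of all tested microRNAs, and 1 rose and 1 fell (median -0.17). That rule needs a narrow interval, which scarce microRNAs rarely have, and these arms had means of 123 to 29671 normalised CPM. The 24.6% is not matched for abundance, and let-7f-5p met the rule although it was called lower. The level of let-7b-5p was 10754, 11444 and 10878 normalised CPM in chow WT, against 11147, 11432 and 11364 in the knock-in (log2 fold change 0.04, 95% interval -0.19 to 0.27). The groups overlapped, and on the TMM scale HFD WT stood above both at 15603, 14177 and 15978. As a share of all counts, the guide arm list had a mean of 12.6% for chow WT. Its mean share was 9.73% for HFD WT and 8.20% for the knock-in. The most abundant member, let-7i-5p, was 34736, 30244 and 29222 in chow WT and 33567, 21946 and 28314 in HFD Sirt3 AKI, against 42476, 42592 and 46094 in HFD WT. Nearness to chow WT rested on the scaling here: with library totals 7 of the 9 were called lower and none higher, with a median of -0.58 and let-7b-5p at -0.36.

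The 2 exceptions were let-7f-5p and let-7e-5p. The former fell from 21572, 22512 and 21918 to 15314, 13507 and 12574 normalised CPM (-0.67, SE 0.11, edgeR adjusted p = 0.00290). HFD WT libraries, at 20731, 18713 and 19466, stood below chow WT as well, but above HFD Sirt3 AKI. The latter, the scarcest let-7 arm among those named, rose from 551, 601 and 587 to 959, 1204 and 959.7 (0.84, SE 0.14, adjusted p = 0.00309), and this call was lost with library totals (0.46).

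A set of microRNAs called in HFD WT over chow WT was not called in HFD Sirt3 AKI over chow WT. A total of 24 known microRNAs were called in HFD WT, were not called in HFD Sirt3 AKI and had less than 0.5 times the HFD WT log2 fold change there, 16 of them higher and 8 lower in HFD WT. Of these 24, 19 had a 95% interval within 2-fold of chow WT. For all microRNAs tested, 155 of 346 (44.8%) were called in HFD WT over chow WT. Directly between HFD Sirt3 AKI and HFD WT, 43 of 346 (12.4%) were called in the fit of 9 libraries. A call in 1 comparison with chow WT and none in the other does not show a difference between the 2 high fat diet groups. The set was chosen on these values and both comparisons use the same chow WT libraries, so the values that follow are a description without a test.

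Named by smallest adjusted p in HFD WT, 12 of the 24 were miR-126a-5p, miR-103-3p, let-7d-5p, miR-16-5p, miR-93-5p, miR-615-3p, miR-106b-3p, miR-669c-5p, miR-15b-3p, miR-181a-5p, let-7b-5p and miR-200c-3p. The level of miR-93-5p, from the miR-106b to miR-25 cluster inside the Mcm7 gene, was 30889.5, 32277 and 32979 normalised CPM in chow WT, then 52619, 56141 and 64128 in HFD WT, and 36195, 25180.4 and 36221 in HFD Sirt3 AKI. That of let-7d-5p was 3759.5, 3603 and 3692, then 5775, 5905 and 5859.7, then 4029.8, 3115 and 3531. On the TMM scale HFD Sirt3 AKI overlapped chow WT and lay wholly below HFD WT in both. The passenger arm miR-106b-3p, from the same cluster, had means of 2149.9, 3677 and 2616 in that order.

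Others in the set came only part of the way. The endothelial miR-126a-5p, from an intron of Egfl7, was 3636, 3512 and 4296 normalised CPM in chow WT, then 7159, 7074 and 7862 in HFD WT and 4874, 4703 and 4358 in HFD Sirt3 AKI, which lay just above chow WT. Its sister arm miR-126a-3p is not in the set because it was called, at 16883, 18614 and 19649.5 against 23368, 23412 and 22461 (0.33, SE 0.11, edgeR adjusted p = 0.0398), a direction that turned with library totals (-0.07). The metabolic microRNA miR-103-3p had means of 8225, 12396 and 9988, and miR-16-5p had means of 124393, 256381 and 173445. Lower in HFD WT and closer to chow WT in HFD Sirt3 AKI were miR-181a-5p, a lymphocyte and vascular microRNA with means of 2613, 1571 and 2202, miR-200c-3p (309, 200.4 and 252), and miR-615-3p from a Hox cluster (25.9, 5.42 and 17.4).

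How near this set came to chow WT depended on the fit, the filter, 1 library and the scaling. Calls in HFD WT came from the fit of all 9 libraries. Those in HFD Sirt3 AKI came from a fit without the HFD WT libraries. With all 9 libraries in the fit, 2 of the 12 were called higher in HFD Sirt3 AKI than in chow WT and none lower. With no filter on low counts 4 of the 12 were called higher and none lower. The lack of a call therefore rested in part on the fit and filter used. Without HFD Sirt3 AKI replicate 2, 5 of the 12 were called higher than chow WT, and in the larger batch, which keeps only replicate 1 of the knock-in, 7 of the 12 were. With library totals 5 of the 12 were called lower and none higher. Calls in HFD WT over chow WT were not refitted with library totals. Mean TMM factors were 1.29 for chow WT and 0.797 for HFD WT, so library totals lower HFD WT over chow WT. The increases of this set in HFD WT are therefore shown on the TMM scale only.

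**Figure D4:**
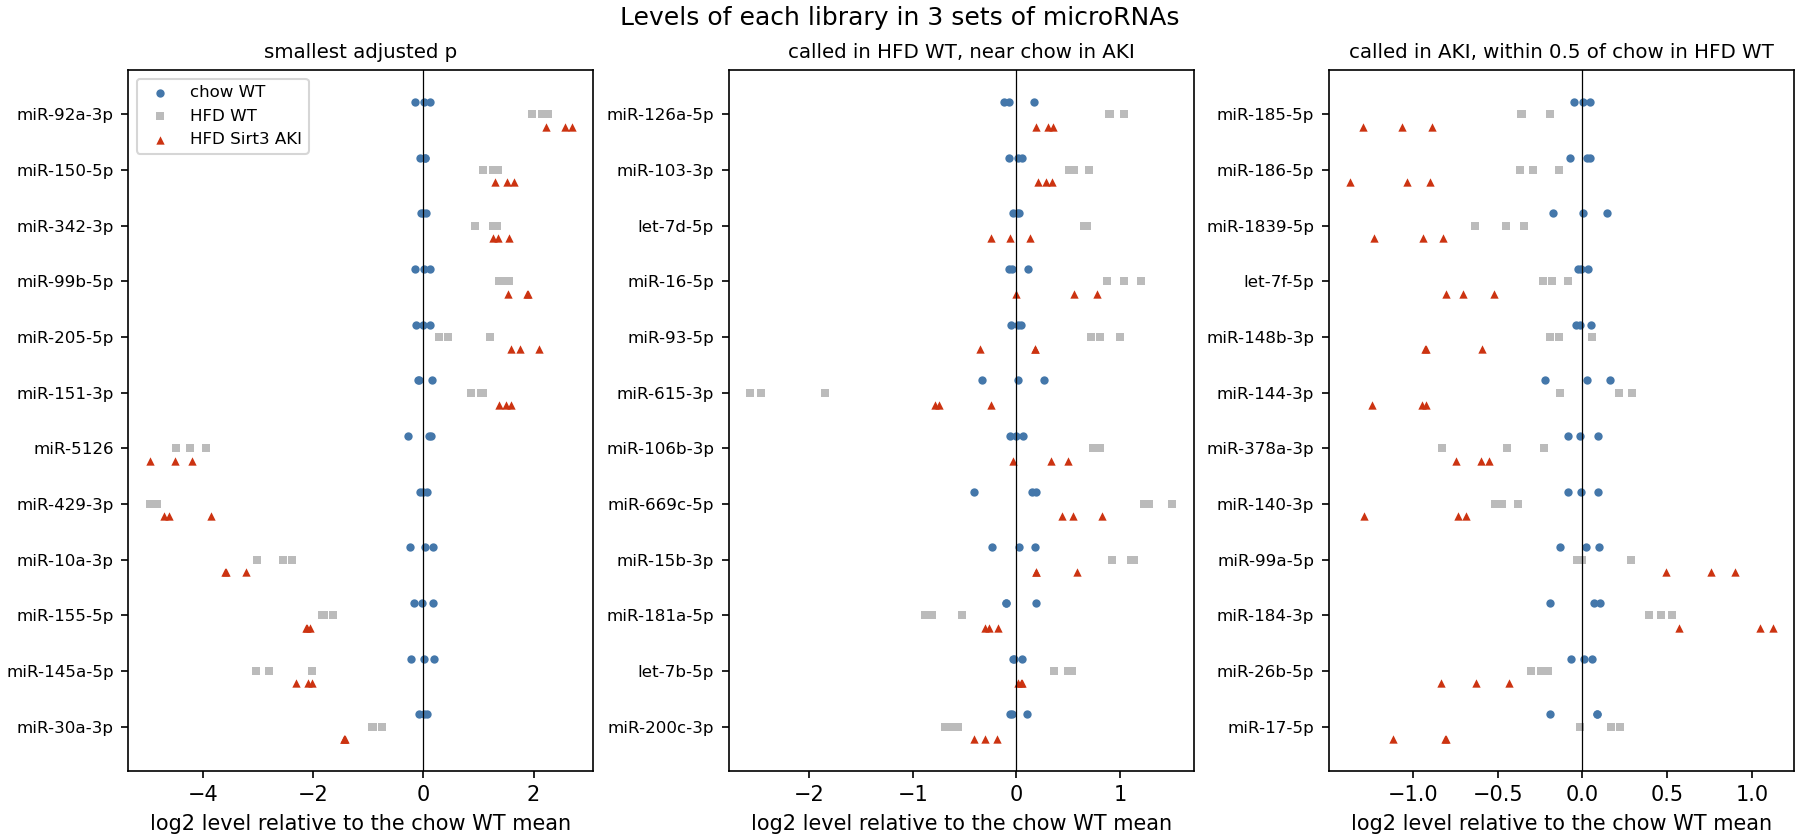
Log2 level of each library relative to the chow WT mean for 3 sets of 12 microRNAs: those with the smallest adjusted p, those called in HFD WT and near chow WT in HFD Sirt3 AKI, and those called in HFD Sirt3 AKI and within 0.5 of chow WT in HFD WT. In the first set both high fat diet groups lie on the same side of chow WT, as for miR-429-3p, and in the middle set HFD WT lies farthest from 0.

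A further 25 known microRNAs were called in HFD Sirt3 AKI over chow WT while HFD WT stood within a log2 fold change of 0.5 of chow WT, 17 of them lower and 8 higher. Again the choice used these values. It did not ask for a call between HFD Sirt3 AKI and HFD WT, where 43 of 346 (12.4%) were called. Of the 12 with the smallest adjusted p, 10 were lower: miR-185-5p, miR-186-5p, miR-1839-5p, let-7f-5p, miR-148b-3p, miR-144-3p, miR-378a-3p, miR-140-3p, miR-26b-5p and miR-17-5p. The level of miR-185-5p, a regulator of cholesterol uptake genes in liver, was 2092, 2177 and 2238 normalised CPM in chow WT, then 1900.5, 1686 and 1692 in HFD WT and 1171, 882 and 1038 in HFD Sirt3 AKI (log2 fold change over chow WT -1.07, SE 0.14). That of miR-186-5p was 2452, 2258 and 2424, then 1844, 1947 and 2159, then 1275, 919 and 1161 (-1.09, SE 0.15). In both the groups did not overlap, HFD Sirt3 AKI was lowest and the calls were kept throughout.

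The abundant cartilage-enriched miR-140-3p followed the same order, with means of 24196, 17620.2 and 13177 normalised CPM (-0.88, SE 0.17), and was also kept throughout. For miR-148b-3p the means were 1287, 1212 and 736 (-0.81, SE 0.14). The 2 higher ones were miR-99a-5p, at 1296, 1380.0 and 2148, and miR-184-3p, an eye and skin-enriched microRNA, at 260.1, 358 and 497. With library totals miR-99a-5p was no longer called (0.34). Within the set, 10 of 10 decreases were kept with library totals. That scaling lowers HFD Sirt3 AKI over chow WT by construction, so this count was largely fixed in advance. With the batch label as a term 9 of 10 were kept, but without a filter 5 of 10. These counts cover HFD Sirt3 AKI over chow WT only. Nearness of HFD WT to chow WT, by which the set was chosen, was not refitted with library totals. Those lower HFD WT over chow WT by construction, so that nearness is shown on the TMM scale only.

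With TMM, miR-20a-5p and miR-7a-5p alone among known microRNAs were called in opposite directions in the 2 high fat diet groups relative to chow WT. Their HFD WT log2 fold changes, 0.59 for each, were not refitted with library totals, which lower HFD WT over chow WT by construction. The increase in HFD WT is therefore shown on the TMM scale only. The level of miR-20a-5p, a guide arm of the miR-17 to miR-92 cluster, was 1547, 1931 and 1865 normalised CPM in chow WT, then 2416, 2753 and 2888 in HFD WT and 1385, 888 and 1059 in HFD Sirt3 AKI (-0.68, SE 0.19, edgeR adjusted p = 0.0231). Its call was lost in 9 of 20 alternatives, with -0.21 in the larger batch. That of miR-7a-5p, a neuroendocrine microRNA that restrains insulin secretion, was 353, 311 and 342, then 525, 505 and 486, then 203, 208 and 221 (-0.67, SE 0.14, adjusted p = 0.00712). In normalised CPM none of these 3 groups overlapped another for miR-7a-5p. The call of miR-7a-5p in HFD Sirt3 AKI was lost in 4 of 20 alternatives (no filter, equal depth, and without chow WT replicate 1 or 3). It is on the list of pancreas and neuroendocrine microRNAs, of which the islet microRNA miR-375-3p rose from 84.9, 70.5 and 138 to 491, 392 and 518 (4.77-fold; 2.27, SE 0.26, adjusted p = 4.42e-04), while HFD WT stood between at 229, 160.2 and 150.3.

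The clusters from miR-17 to miR-92 encode microRNAs of several seeds. Of 17 tested members 3 rose and 4 fell (median -0.34, and -0.74 with library totals), a called share near the 41.3% of all tested microRNAs. The AUUGCAC seed, carried by miR-92a-3p, miR-25-3p, miR-92b-3p and miR-363-3p, had 3 increases and no decrease, with a median of 1.76. The AAAGUGC seed, carried by 5 tested microRNAs, had 2 decreases, miR-20a-5p and miR-17-5p (-0.90, SE 0.20, edgeR adjusted p = 0.00917), 3 members not called, and miR-93-5p among these at 0.02. The call of miR-17-5p was lost in 4 of 20 alternatives (no filter, the batch term, and without chow WT replicate 2 or 3), and a difference between seeds was not tested. The passenger arm miR-17-3p fell from 865, 1001 and 936 to 445, 247 and 394 normalised CPM (-1.37, SE 0.22, adjusted p = 0.00269). All 3 tested microRNAs with the CCCUGAG seed, miR-125a-5p, miR-125b-5p and miR-351-5p, rose (0.95, 1.25 and 0.84). Only the first of these 3 was kept throughout: miR-125b-5p lost its call in 4 of 20 alternatives and miR-351-5p in 5, among them library totals and the batch term for both. The 6 with the AGCAGCA seed of miR-16-5p had a median of 0.12, with 5 of them within 2-fold of chow WT by their 95% interval.

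Called shares of the remaining lists are to be read against the 41.3% of all tested microRNAs called, and none was compared with it by a test. Both endothelial arms are given above. Of 5 striated muscle microRNAs miR-133a-3p rose (0.69, edgeR adjusted p = 0.00321) and its scarce 5p arm fell by 1.43, and with library totals none rose and 2 fell. Brain microRNAs had 2 increases, miR-128-3p (0.92, adjusted p = 4.42e-04) and miR-132-3p (1.52, adjusted p = 0.0100), and 1 decrease, miR-219a-5p, an oligodendrocyte microRNA that fell from 219, 152 and 121 to 25.5, 32.6 and 28.9 normalised CPM (-2.50, SE 0.27, adjusted p = 3.66e-04), among 8. The imprinted Dlk1-Dio3 cluster encodes many placental and brain microRNAs, and 16 of its 52 listed members were tested. The cluster had 4 increases and no decrease among these 16, with a median of 1.60, the highest of the 16 lists. It had 2 increases among the 8 still tested without HFD Sirt3 AKI replicate 2 (median 0.72), 1 among 8 without replicate 3, 8 among 9 without replicate 1, and 1 with library totals. Of 4 Sfmbt2 cluster members tested, out of 13 listed, 0 were called by edgeR and 0 had an unadjusted p below 0.05 (median 1.03). The filter needs enough counts in 1 group only, so scarce members of both clusters could pass it through the HFD Sirt3 AKI libraries alone. That favours medians above 0, so neither median is read as a shift of its cluster.

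HFD Sirt3 AKI replicate 2 differed from replicates 1 and 3 in microRNAs of several tissues. Its miR-9-5p level, a neural microRNA, was 3790.2 normalised CPM against 105 and 956, and its miR-122-5p, miR-203-3p and miR-199a-3p levels were 26196, 6139.6 and 7121 against 5663 and 11075, 1256 and 2098, and 2423 and 3195. In chow WT the highest values of these 4 were 687, 6519, 1283 and 1983. The hepatocyte list as a whole took 0.923%, 3.52% and 1.45% of counts in knock-in replicates 1, 2 and 3 (chow WT 1.5% to 1.85%), and the brain list 0.425%, 0.968% and 0.499% (chow WT 0.356% to 0.451%). The part of this library's makeup in the calls was not tested beyond leaving it out, which gave 77 increases and 81 decreases among 263 tested. On a multidimensional scaling of the 6 libraries the groups parted on the first dimension (71.4% of the variance). On the next (15.4%) HFD Sirt3 AKI replicates 1, 2 and 3 lay at 0.52, -0.55 and 0.05. Replicate 1 carries the batch label of the chow WT libraries, and replicates 2 and 3 the other. With the batch label as a term 116 microRNAs were called, 44 higher and 72 lower, and 41 of the 67 increases and 60 of the 76 decreases were kept. The other batch holds no chow WT library, so that fit takes the group difference from replicate 1 against chow WT. It does not adjust a comparison of all 3 knock-in libraries. The larger batch alone makes the same contrast, so these 2 alternatives are not separate checks. In the larger batch alone, with 1 knock-in library that is assumed to vary like chow WT, 160 were called.

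**Figure D5:**
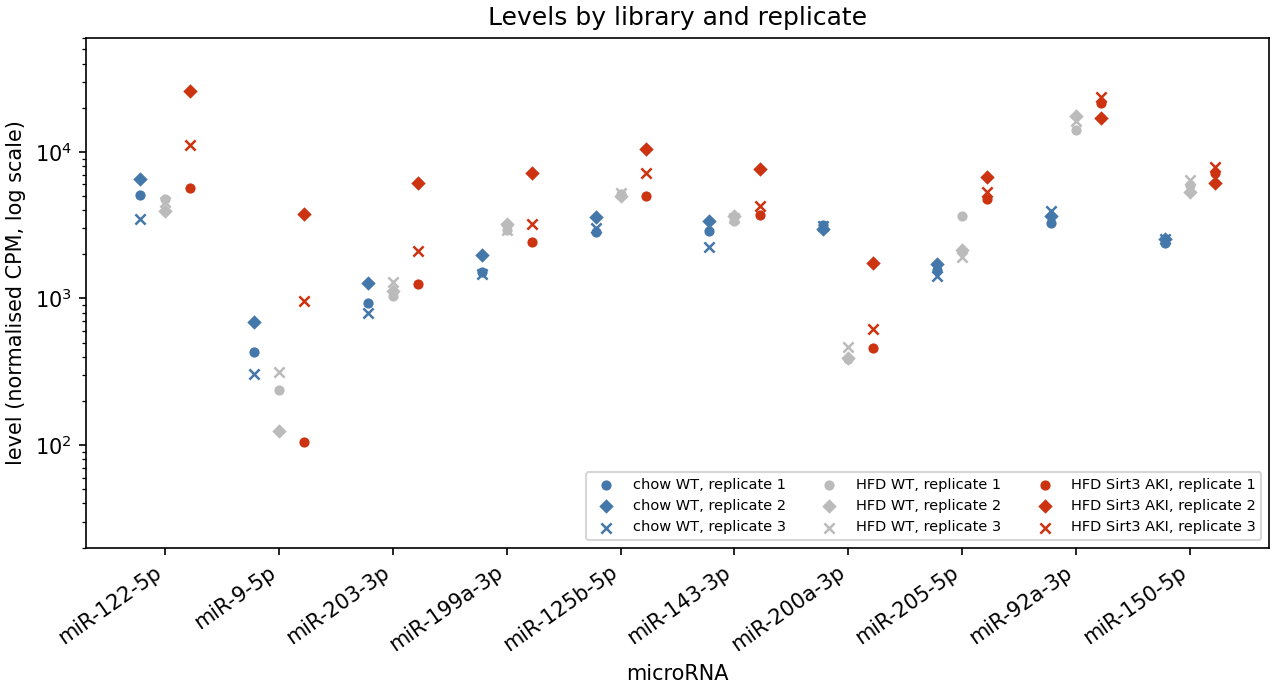
Level in normalised CPM (log scale) of 10 microRNAs in each library, with colour for the group and the marker shape for the replicate. HFD Sirt3 AKI replicate 2 lies far above replicates 1 and 3 for miR-122-5p, miR-9-5p, miR-203-3p and miR-199a-3p, and beside them for miR-92a-3p, miR-150-5p and miR-205-5p.

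Several microRNAs with little known function also fell. The sequences of 4 of them are shown, with the seed in capitals, for lack of a known role by which to describe them.
miR-5126: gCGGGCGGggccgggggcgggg
miR-6240: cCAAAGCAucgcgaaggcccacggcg
miR-6538: cGCGGGCUccggggcggcg
miR-2137: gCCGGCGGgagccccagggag
The sequence of miR-5126 holds only G and C (100%) and that of miR-6538 nearly so (94.7%), and the shares of G and C were 85.7% in miR-2137 and 69.2% in miR-6240, against a median of 47.8% over the tested microRNAs. The level of miR-6240 was 11497, 11089 and 12774 normalised CPM in chow WT, against 318, 1608 and 825 in the knock-in (12.9-fold lower; -3.68, SE 0.48, edgeR adjusted p = 0.00138). That of miR-5126 was 528, 395 and 518 against 15.5, 26.2 and 21.2 (22.9-fold lower; -4.52, SE 0.23, adjusted p = 3.52e-05). Those of miR-6538 were 203, 169.8 and 207 against 2.16, 1.07 and 5.68 (65.1-fold lower), and those of miR-2137 were 769, 737 and 1084 against 90.2, 342 and 171 (4.30-fold lower). At its knock-in levels miR-6538 passed the filter only through chow WT, so its direction was largely fixed by the filter. In all 4 the groups did not overlap, and HFD WT means (701, 26, 0.638 and 158) were also far below chow WT.

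Predicted microRNAs, listed apart from the known ones by the authors, were mostly counts of chow WT. Of 105 predicted microRNAs 6 had enough counts to be tested, and all 6 were called lower in HFD Sirt3 AKI. Those with few or no counts in HFD Sirt3 AKI passed the filter only through chow WT, where they were high. The shared direction was thus largely fixed by the filter. The predicted 13_8063 was 183, 180.3 and 407 normalised CPM in chow WT, against 3.23, 5.34 and 2.58 in the knock-in (-6.08, SE 0.45, edgeR adjusted p = 8.70e-05). The predicted 15_11735 and 5_24224, counted identically, summed to 123 counts in chow WT and 0 in the knock-in, at least 254.7-fold lower with a floor of 3 counts for the group sum. Predicted microRNAs together took 0.0808%, 0.0812% and 0.12% of counts in chow WT and 0.00420%, 0.00694% and 0.00564% in HFD Sirt3 AKI. In the other direction miR-511-5p, from an intron of the macrophage mannose receptor gene Mrc1, had 0 counts in chow WT and 115 over HFD Sirt3 AKI (39 over HFD WT). It passed the filter only through HFD Sirt3 AKI, so its direction was fixed by the filter too. These are raw sums, and HFD Sirt3 AKI libraries were on average 8.26 times as deep as chow WT libraries.

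Several hairpins changed the balance of their arms, as miR-30a did. Of 80 hairpins with both arms tested, 25 (31.2%) changed in the log2 ratio of the less to the more abundant arm by limma, 16 losing and 9 gaining the less abundant arm, and 35 had an unadjusted p below 0.05. The losses of smallest adjusted p were in miR-10a, from -3.63 ± 0.238 to -6.57 ± 0.114 (SD, n = 3; difference -2.94, SE 0.20, limma adjusted p = 3.35e-04), miR-10b (-2.37), miR-99b (-2.38) and miR-195a (-2.64). In the first, miR-10a-3p fell from 396, 327 and 439 to 32.3, 32.0 and 41.3 normalised CPM, while miR-10a-5p went from 4775 ± 129.6 to 3419 ± 231. For miR-10b-3p the means were 143 and 26.2, and the guide miR-10b-5p was not called (-0.04). Gains were seen in miR-674 (1.44), miR-221 (2.12) and miR-145a (2.13). For miR-145a the scarce 3p arm was at 16.7 and 17.1 normalised CPM while miR-145a-5p fell.

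The sequences of called microRNAs differed little from those of all tested ones in length. Both called sets and all 290 tested microRNAs with a sequence had a median length of 22 bases. Median GC content was 50% in the 54 called higher, 45.5% in the 59 called lower and 47.8% over all 290. A first base of U was found in 59.3% of those called higher and 44.1% of those called lower, against 47.6% of all tested. The motif GGAG, described for vesicle-sorted microRNAs, was searched on the mature strand only and was in 13% of those called higher, 10.2% of those called lower and 2.63% of those within 2-fold of chow WT, against 9.31% of all tested and 14.2% of the 1679 mature sequences in the table. For the motif CCCU the shares were 14.8%, 8.47%, 6.58%, 9.66% and 11.4% in the same order. These are counts of letters on few microRNAs (7, 6 and 2 with GGAG), are not independent where seeds are shared, and were not tested.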

How the data were processed

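Small RNA was sequenced from serum small extracellular vesicles. The deposited table holds raw read counts, whole numbers per mature microRNA from the authors' own counting. The deposited TPM values are those counts scaled to 1000000 per library, with no length term. Per the submitters' processing notes, Bowtie 0.12.2 and the build mm8 were used, with no role stated. Trimming, the reference set of microRNAs and how reads were counted are not given in the sources used. Coordinates and sequences come from RefSeq on GRCm38.p6, not from the authors' build.

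The counts were tested by quasi-likelihood (edgeR 4.0.16, R 4.3.3) on the 3 HFD Sirt3 AKI and 3 chow WT libraries, after filterByExpr (minimum count 10) and with TMM factors over all 9 libraries, adjusted over all 346 microRNAs tested by Benjamini-Hochberg. The 823 left out held 0.103% of counts. HFD WT values and their log2 fold changes come from a fit of all 9 libraries. Each adjusted p is from edgeR unless limma 3.58.1 is named. Arm ratios used counts per 1000000 plus 1 in limma. A 0 was given a floor of 3 counts over the group, which covers counting error only, since amplified reads are not independent molecules. Alternatives were library totals, DESeq2 1.42.0 and its size factors, other filters, limma on log2(TPM + 1), thinning to 225002 counts, a batch term, the larger batch, identical rows counted once and leaving out each library. On simulated counts for 346 microRNAs of this comparison the test called 14 of 67 at 1.5-fold, 44 of 67 at 2-fold, 59 of 66 at 4-fold and 5 of 146 unchanged ones. Each simulated microRNA had the same spread in both groups, and the groups shared 1 baseline. The data have coefficients of variation of 10.2% in chow WT and 38.6% in HFD Sirt3 AKI. The simulation therefore does not show how often the test calls unchanged microRNAs in these data.

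The members and the 16 lists were chosen with earlier results of these data known. Named were the miR-30 family, in each direction the 12 known ones of smallest adjusted p, list members of at least 500 normalised CPM, the 12 leading ones of each set relative to chow WT and HFD WT, the 10 most abundant, up to 3 predicted microRNAs and up to 3 hairpins per direction. Others, named for a small count, a shared seed or hairpin, or as scarcer list members, were chosen after their values were seen.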

Additional observations from a re-analysis of the deposited data

How the results depend on the processing

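The decrease of miR-30a-3p was called in all 20 alternatives. The count of 143 called microRNAs was 71 at equal depth (34 higher, 37 lower, of 237 tested) and lay between 97 and 158 when single libraries were left out, with 44 to 77 higher and 49 to 81 lower. Fewer microRNAs are tested and fewer counts are used at equal depth, by construction. With library totals 35 were higher and 118 lower, and limma on log2(TPM + 1) or log2(TPM + 10) gave 35 and 120. No filter gave 101 higher. The batch term gave 44 higher. The 85 microRNAs within 2-fold of chow WT became 56 with the batch term, 48 at equal depth, and 62 to 89 with single libraries left out. Directions turned for let-7b-5p (-0.36 with library totals and with both limma fits), miR-93-5p (-0.39, and -0.40 and -0.40), miR-126a-3p (-0.065, and -0.0669 and -0.0669), miR-15a-5p (0.48 in the larger batch), miR-1a-3p (-0.52 in the larger batch, and from -0.39 without HFD Sirt3 AKI replicate 2 to 0.30 without replicate 1) and miR-9-5p (-2.19 with the batch term, -2.03 in the larger batch). The cause was not tested, except that library totals and TPM lower the values by construction. Same-numbered libraries of the groups had correlations of 0.023, 0.245 and -0.051 and share only a number, and not each correlated best with its own; a fit with the replicate block called 159 (75 higher, 84 lower). Chow WT depth limits the scarcer microRNAs, where 823 could not be tested.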
